A study of Rattus norvegicus with 32 samples.

Results

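The response to binge methamphetamine (METH) that 4 brain regions of the rat had in common was examined in all 32 RNA-seq libraries of the study, with the 16 METH libraries set against the 16 saline (Sal) libraries in a single fit that kept the region as a blocking factor. All 32 of 32 samples therefore entered the comparison, and 16122 of the 28914 annotated genes had enough counts to be tested. The regions were the hippocampal dentate gyrus (DG) and Ammon's horn (CA), the nucleus accumbens (NAc) and the subventricular zone (SVZ), each with 4 Sal and 4 METH libraries. The rats were adult male Sprague-Dawley animals, a wild-type outbred stock. METH rats received 4 intraperitoneal injections of 10 mg/kg at intervals of 2 h, and Sal rats received saline on the same schedule. Tissue was taken the day after the last dose, the NAc and SVZ by punch and the DG and CA by free dissection, and rRNA-depleted total RNA was sequenced. The labels number the replicates 1 to 4 within each group without naming the animal behind each library. The study took all the regions from each brain, and 8 library numbers recur in the NAc, DG and CA, so libraries of different regions may come from the same rats. The common fit treated the 32 libraries as independent, with 27 residual degrees of freedom, and its p-values are too small as far as libraries of a rat deviate together. With the library number as a block the estimated correlation was 0.025 and 0 genes were called. That estimate pooled all regions. Deviations of NAc and CA libraries with the same number correlated at r from -0.0951 to 0.259, and pairs with a DG library from -0.325 to 0.257. With 1 unit per library number and no DG libraries 0 genes were called and 771 had an unadjusted p under 0.05.

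METH enters monoamine terminals and releases dopamine into the extracellular space, and in repeated high doses it raises body temperature and damages dopamine terminals. Injury of this kind is known to be accompanied by astrocytes that make more of the filament protein GFAP and by activated microglia. The NAc is built mainly of medium spiny neurons that carry dopamine receptors, whereas the DG and CA are layered with glutamatergic neurons and the SVZ holds neural stem cells beside the ventricle.

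The libraries held between 11094002 and 21869773 counted fragments, with a median of 14533166.5. Values are given below as CPM, counts scaled to a common library size set by the upper quartile, and differences as log2 fold changes of METH over Sal with their standard errors (SE). The common biological coefficient of variation was 0.308. Since whole tissue was sequenced, fewer cells of a type and less RNA per cell cannot be told apart.

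Several libraries stood apart, and the main counts are also given without them. The header of each count table carries a library number, and the numbers 14, 15, 22 and 23 were Sal and 20, 21, 24 and 25 were METH in both NAc and CA. In the DG, the libraries labelled Sal 1 and 2 carried the numbers 20 and 21, and those labelled METH 1 and 2 carried 14 and 15. The gene model AABR07044362.1 stood at 2.35 CPM in NAc METH 1, 2.26 CPM in CA METH 1 and 3.05 CPM in the library labelled DG Sal 1, all of number 20. Under number 14 it stood at 0.0754 CPM in NAc Sal 1, 0.170 CPM in CA Sal 1 and 0.0615 CPM in the library labelled DG METH 1. In NAc and CA, 8 genes were picked for large variation between numbers relative to the disagreement of the 2 regions within a number. Over these, all 8 DG libraries correlated best with their own number (r from 0.768 to 0.941), and over a longer list of 50 genes 4 of the 8 did. DG Sal 2 reached r of 0.903 with its own number and 0.843 with the next best. The labels were kept as given throughout. In the SVZ, 2 METH libraries each carried the numbers 1669 and 1670. Over the same 8 genes the pairs of a number correlated at r of 0.710 and 0.884, and no pair of different numbers exceeded 0.693. Over genes of at least 20 counts, the pairs of a number differed by a chi-square per degree of freedom of 133 and 115. SVZ METH 2 and 4, of different numbers, differed by 16.4, the lowest of 48 pairs of libraries within a group. The headers of SVZ METH 2 and 4 and SVZ Sal 1 and 2 also carried the mark EXTRA. From the numbers and the 8 genes, the 4 SVZ METH libraries may come from fewer than 4 rats. They were kept as 4 libraries, and an alternative that summed each pair also called 0 genes. The SVZ standard errors and the comparisons without overlap below treat them as independent.

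**Figure D1:**
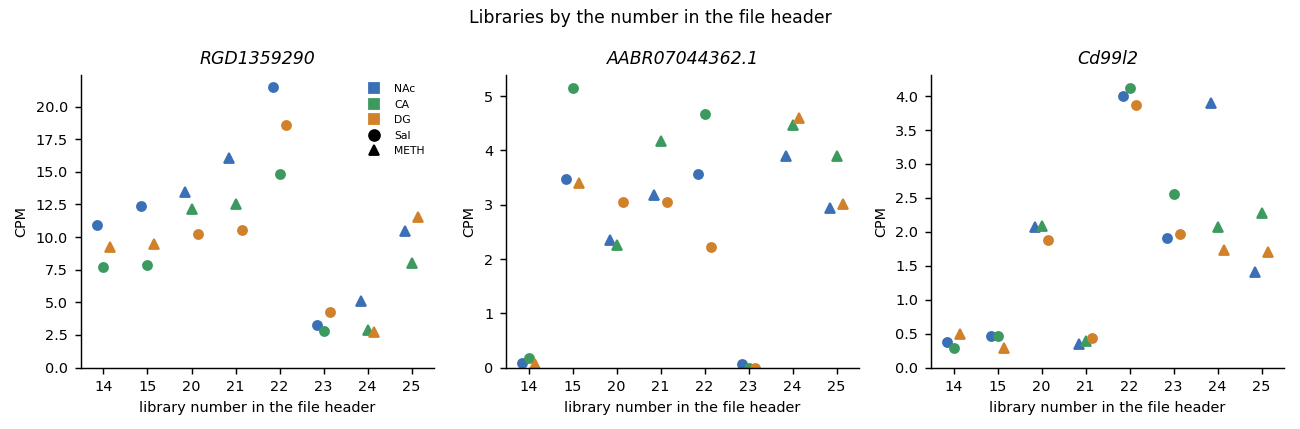
CPM (y axis) of RGD1359290, AABR07044362.1 and Cd99l2 in the NAc, CA and DG libraries, ordered by the library number in the file headers (x axis), with circles for Sal and triangles for METH. DG libraries lie near the NAc and CA libraries of the same number, also for the 4 numbers whose treatment label is crossed.

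Regional markers also varied between libraries of the same group. Ppp1r1b, the dopamine-regulated phosphatase inhibitor DARPP-32 of medium spiny neurons, lay between 479 and 2453 CPM in 7 NAc libraries and at 41.7 CPM in NAc METH 3. Slc17a7, the vesicular glutamate transporter of hippocampal neurons, stood at 3.88 CPM in DG Sal 3 and between 1103 and 2000 CPM in the other DG libraries, while Ppp1r1b reached 542 CPM in DG Sal 3. DG Sal 4 alone held 1631 counts of Aipl1 and 881 of Crx, genes known from photoreceptors and the pineal gland. SVZ Sal 1 and SVZ METH 2 held 105 and 70.7 CPM of Ppp1r1b, against 227 to 2057 CPM in the other SVZ libraries, and 261 and 259 CPM of Tcf7l2, a factor abundant in thalamic neurons, against 14.1 to 149 CPM. Prox1, the transcription factor of dentate granule neurons, ranged from 26.1 to 312 CPM in the DG and from 33.2 to 296 CPM in the CA, so it did not separate the 2 hippocampal regions. Dlx2, a factor of SVZ neuroblasts, ranged from 3.15 to 31.3 CPM in the SVZ and from 1.64 to 8.51 CPM elsewhere. The choroid plexus transcript Ttr reached 5378 CPM in DG METH 3 and 7405 CPM in SVZ METH 3.

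No gene passed the threshold for a common METH effect across the 4 regions. With edgeR's quasi-likelihood test, 0 of 16122 genes (0.0%) had a Benjamini-Hochberg FDR under 0.05, and the lowest FDR was 0.223. At an unadjusted p under 0.05 there were 1201 genes (7.45%), of which 661 (4.1%) were higher and 540 (3.35%) lower in METH libraries. DESeq2's Wald test on the same counts called 11 genes, 7 higher and 4 lower, and limma-voom called 0. At an unadjusted p under 0.05 the higher share was 55.0% of genes in edgeR with upper-quartile scaling and 44.2% in DESeq2 with its own size factors. Without DG replicates 1 and 2 of both treatments, edgeR called 10 of 16599 genes (0.0602%), 6 higher (0.0361%) and 4 lower (0.0241%), and 1287 (7.75%) had an unadjusted p under 0.05, 700 (4.22%) higher and 587 (3.54%) lower. With NAc METH 3 and DG Sal 3 left out instead, 0 genes were called and 905 had an unadjusted p under 0.05. With SVZ Sal 1 and SVZ METH 2 left out beside them, 0 were called and 1128 were at that level. With 1, 2 or 4 factors estimated by RUVr from the residuals, the kind of adjustment the study used, 2, 45 and 314 genes were called. Sequencing run was uneven between treatments. In the NAc 1 run held only Sal 1 and 2 and another only METH 3 and 4. In the DG 1 run held only Sal 1, 2 and 4 and another only METH 3 and 4. CA Sal 1 and 2 had a run label of their own. METH and run therefore cannot be fully told apart. With run as a covariate 0 genes were called and 771 had an unadjusted p under 0.05.

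In 2544 genes (15.8%) the log2 fold change had the same sign in all 4 regions, 1396 (8.66%) higher and 1148 (7.12%) lower in METH libraries. Of these, 835 (5.18% of genes tested) also had an unadjusted p under 0.05 in the common fit, 470 higher (2.92%) and 365 lower (2.26%). All METH libraries of a region exceeded all its Sal libraries in 1.48% of genes in the NAc, 3.7% in the DG, 2.56% in the CA and 0.837% in the SVZ, and lay below them in 0.924%, 3.41%, 1.75% and 0.757%. The median log2 fold change over all genes was 0.01. In each direction, 12 genes with the lowest p and the same sign in all 4 regions are described here, as values and not as changes.

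The 12 genes with higher levels in METH libraries included transcripts of astrocytes and of microglia. Gfap, the intermediate filament protein of astrocytes (10:90990762-90999506 in rn6, minus strand), ranged from 223 to 736 CPM in Sal libraries with a median of 395, and from 360 to 1337 CPM in METH libraries with a median of 684. All 16 METH libraries lay above the Sal mean of their own region, while the groups were separated without overlap in the NAc alone. The common log2 fold change was 0.86 (SE 0.18, FDR = 0.223 in edgeR), and DESeq2 gave an FDR of 0.0187. Without DG replicates 1 and 2 it was 0.94 (FDR = 0.0816 in edgeR). In the NAc, Gfap stood at 232, 284, 226 and 275 CPM in Sal libraries and at 607, 360, 1069 and 979 CPM in METH libraries, a log2 fold change of 1.57 (SE 0.33). The DG difference was 0.73 (SE 0.33), the SVZ difference 0.90 (SE 0.33) and the CA difference 0.24 (SE 0.32), where Sal libraries spread from 374 to 736 CPM and enclosed the METH range of 574 to 669 CPM. The region-by-METH interaction for Gfap had an unadjusted p of 0.0574 in edgeR. FAM187A, which adjoins Gfap on the other strand and was counted without strand, had a common log2 fold change of 0.99 (SE 0.24), and reads that run past the annotated end of Gfap cannot be told apart from its own.

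A pair of microglial genes followed. C1qb, a chain of the complement initiator C1q (5:155246447-155252003), ranged from 18.6 to 27.6 CPM with a median of 21.8 in Sal libraries and from 16.8 to 31.5 CPM with a median of 25.8 in METH libraries. Of the METH libraries, 15 of 16 exceeded their regional Sal mean, and the groups did not overlap in the NAc and CA. NAc Sal libraries had 22.1, 22.2, 21.3 and 19.1 CPM against 31.4, 31.3, 30.5 and 27.5 CPM in NAc METH libraries. The common log2 fold change was 0.25 (SE 0.06, FDR = 0.348 in edgeR), made of 0.51 in the NAc, 0.01 in the DG, 0.23 in the CA and 0.26 in the SVZ. Tyrobp, the signalling adaptor of TREM2 and other myeloid receptors, had medians of 5.57 CPM in Sal and 7.34 CPM in METH libraries, within 4.60 to 7.08 and 4.98 to 10.7 CPM. Its log2 fold change of 0.35 (SE 0.09, FDR = 0.348 in edgeR) was 0.45, 0.23, 0.36 and 0.36 in NAc, DG, CA and SVZ, and 14 of 16 METH libraries were above their regional Sal mean.

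The remaining higher genes had diverse roles. Rplp0, a protein of the ribosomal stalk often used as a reference gene, ranged from 155 to 193 CPM with a median of 183 in Sal libraries and from 186 to 240 CPM with a median of 206 in METH libraries. All 16 METH libraries exceeded their regional Sal mean although the ranges overlapped, and its common log2 fold change of 0.19 (SE 0.04) had the lowest p of all named genes, 2.98e-05. Lpar4, a receptor for lysophosphatidic acid, had a median of 2.82 CPM (1.58 to 4.44) in Sal libraries and 4.04 CPM (2.75 to 5.64) in METH libraries, a log2 fold change of 0.52 (SE 0.11). It was higher in 15 of 16 METH libraries, by 0.76 in the NAc, 0.38 in the DG, 0.66 in the CA and 0.28 in the SVZ. Tspan12, a tetraspanin of the Norrin receptor complex, went from a median of 37.9 to 45.8 CPM (log2 fold change 0.30, SE 0.07), with a SVZ difference of only 0.03. Bmf, a BH3-only promoter of apoptosis, went from 4.42 to 6.08 CPM (0.46, SE 0.11). Gpr37l1, an orphan receptor of astrocytes, Lgi4, a secreted glial protein with a role in peripheral myelination, Fgfrl1, an FGF receptor without a kinase domain, and the calcium-binding S100a16 had common log2 fold changes of 0.33, 0.30, 0.37 and 0.34. Lgi4 was 0.45 higher in the NAc and 0.50 in the CA, but 0.00 in the DG.

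**Figure D2:**
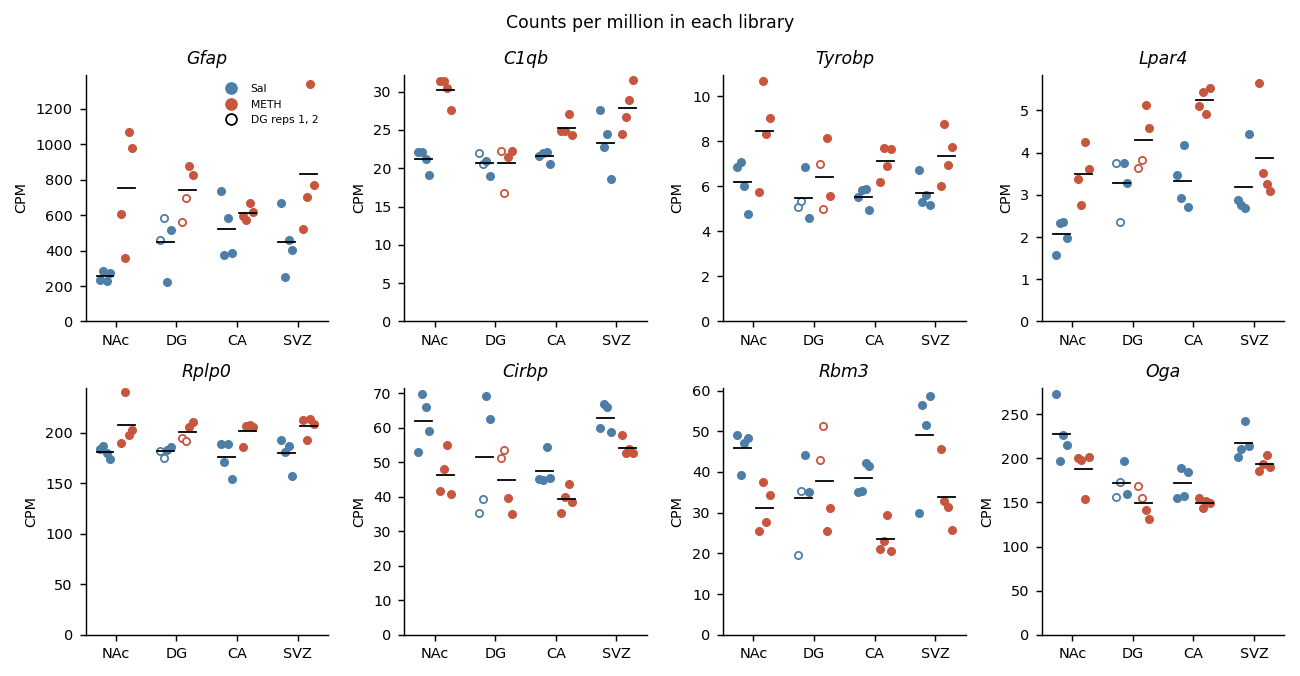
CPM (y axis) of Gfap, C1qb, Tyrobp, Lpar4, Rplp0, Cirbp, Rbm3 and Oga in every library, by region and treatment (x axis). Points are libraries, black lines group means, and open points DG replicates 1 and 2 of both treatments. Gfap in METH libraries reached 1337 CPM and no Sal library exceeded 736 CPM.

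Of the 12 higher genes, 12 had an unadjusted p under 0.05 in the NAc, 3 in the DG, 9 in the CA and 5 in the SVZ. The median log2 fold change of the 12 was 0.51, 0.24, 0.47 and 0.26 in the same order. The choice of the genes used these values, so the counts are a description. With 1 unit per library number and no DG libraries, 12 of the 12 higher and 10 of the 12 lower genes had an unadjusted p under 0.05, and 0 passed the FDR threshold. That fit reused the libraries on which the genes were chosen, so low p-values were built in and it is not a separate check. The end of Lgi4 overlaps Fxyd3 on the other strand, and counting without strand cannot separate reads there.

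The 12 genes with lower levels in METH libraries included regulators of RNA splicing and protein modification. Oga, the enzyme that removes O-linked N-acetylglucosamine from proteins (1:265507451-265542276), ranged from 155 to 273 CPM with a median of 197 in Sal libraries and from 131 to 204 CPM with a median of 162 in METH libraries. All 16 METH libraries were below the Sal mean of their region, and the overall ranges overlapped. Its common log2 fold change was -0.21 (SE 0.05, FDR = 0.348 in edgeR), with -0.28, -0.20, -0.20 and -0.17 in NAc, DG, CA and SVZ. Enpp5, a membrane protein of the nucleotide pyrophosphatase family, had medians of 237 CPM in Sal and 194 CPM in METH libraries (-0.31, SE 0.07), and 15 of 16 METH libraries were below. Btrc, the substrate-recognition subunit of an SCF ubiquitin ligase, had medians of 137 and 118 CPM (-0.19, SE 0.05).

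Srsf5, a serine- and arginine-rich splicing factor, and Clk1, a kinase that phosphorylates such factors, were lower by log2 fold changes of -0.21 (SE 0.05) and -0.25 (SE 0.07). Median levels were 149 and 127 CPM for Srsf5 and 114 and 84.4 CPM for Clk1, in Sal and METH libraries respectively. Slc37a1, a sugar-phosphate transporter, and the kinase Slk were below the regional Sal mean in all 16 METH libraries, by -0.30 (SE 0.08) and -0.33 (SE 0.10). Zfp597, a zinc finger gene, and Phf24, a PHD finger gene, had common log2 fold changes of -0.23 and -0.44. Tnnc2, a troponin C of fast muscle, stood near 2.55 CPM in Sal and 1.41 CPM in METH libraries. The microRNA gene Mir760 was counted at medians of 0.912 and 0.436 CPM, from libraries made for long RNA. By region, 4 of the 12 lower genes had an unadjusted p under 0.05 in the NAc, 5 in the DG, 4 in the CA and 3 in the SVZ.

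**Figure D3:**
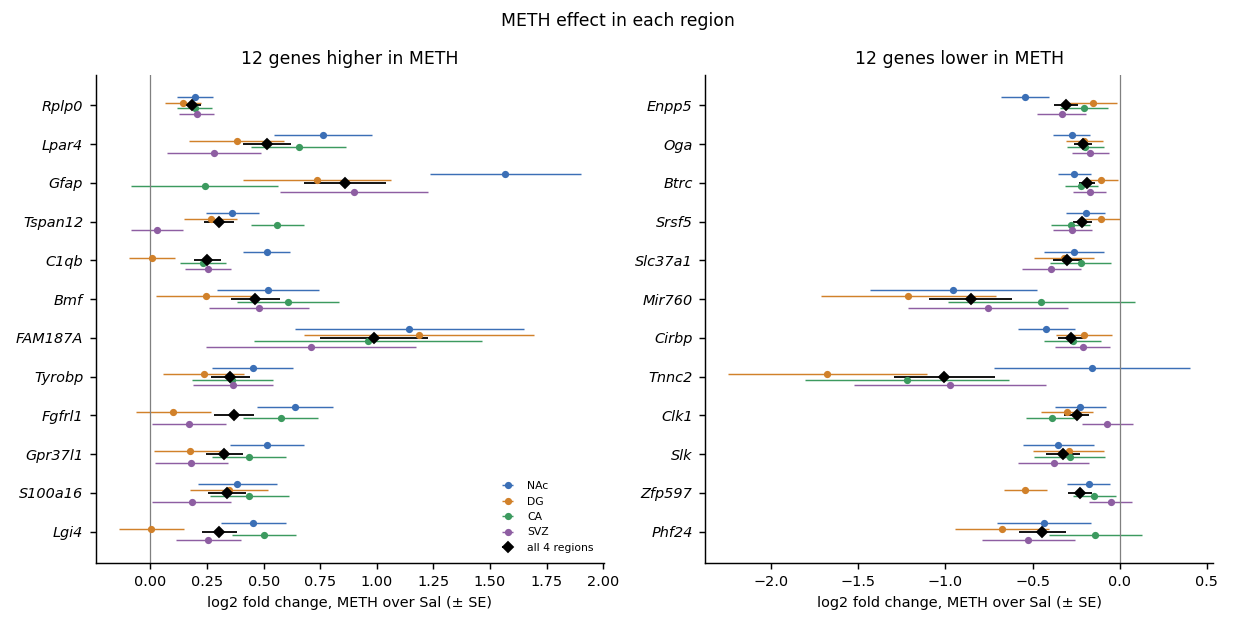
Log2 fold change of METH over Sal (x axis) of the 24 named genes (y axis) in each of the 4 regions and in the common fit, with bars of 1 SE. The higher genes had a median of 0.51 in the NAc and 0.24 in the DG.

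The cold-inducible RNA-binding proteins Cirbp and Rbm3 bind mRNAs and are known to be made in larger amounts when temperature falls. Rectal temperature was recorded during the injections, and those readings were not analysed here. Cirbp (7:12401207-12405022) ranged from 35.4 to 69.8 CPM with a median of 59.0 in Sal libraries and from 34.9 to 58.0 CPM with a median of 45.9 in METH libraries, with 15 of 16 METH libraries below their regional Sal mean. The common log2 fold change was -0.28 (SE 0.08, FDR = 0.491 in edgeR). The groups did not overlap in the CA and SVZ and overlapped in the NAc and DG. DG Sal libraries read 35.4, 39.4, 69.1 and 62.6 CPM and DG METH libraries 51.2, 53.4, 39.5 and 34.9 CPM, so replicates 1 and 2 ran opposite to replicates 3 and 4. In the fit without DG replicates 1 and 2, Cirbp fell by 0.38 on the log2 scale (FDR = 0.0208 in edgeR). Leaving out libraries that run against a difference tends to lower its p, so this FDR is not a separate check.

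Rbm3, taken up here after its values were seen, read 19.7, 35.2, 44.3 and 35.0 CPM in DG Sal libraries and 43.0, 51.3, 25.5 and 31.2 CPM in DG METH libraries. In the NAc and CA the METH libraries were lower, at 25.5, 37.4, 27.7 and 34.2 CPM against 49.0, 39.3, 47.2 and 48.4 CPM in the NAc, and at 21.1, 22.9, 29.5 and 20.5 CPM against 35.1, 35.2, 42.1 and 41.4 CPM in the CA. The groups did not overlap in these 2 regions. In the SVZ they did, with 30.0, 56.5, 51.4 and 58.7 CPM in Sal and 45.7, 32.9, 31.5 and 25.6 CPM in METH libraries. Among all genes, 36 (0.223%) were lower in METH libraries without overlap in at least 2 regions and 51 (0.316%) were higher. The common log2 fold change of Rbm3 was -0.41 (SE 0.13, FDR = 0.523 in edgeR), and without DG replicates 1 and 2 it fell by 0.59 (FDR = 0.0208). As for Cirbp, the libraries left out ran against the difference, so the lower FDR is not a separate check.

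The upstream windows of a pair of genes from each direction are shown because they span both the glial genes and the cold-inducible genes. Each is the 250 bases before the RefSeq transcription start in assembly GRCr8, read 5′ to 3′ on the gene's strand, with matches to the motifs in capitals.
Gfap (chr10:88361662-88361911, minus strand): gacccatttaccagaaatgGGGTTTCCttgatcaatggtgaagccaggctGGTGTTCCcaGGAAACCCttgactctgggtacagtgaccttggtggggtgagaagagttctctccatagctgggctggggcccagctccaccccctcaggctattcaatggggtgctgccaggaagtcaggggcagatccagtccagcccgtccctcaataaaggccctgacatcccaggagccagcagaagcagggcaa
C1qb (chr5:154407828-154408077, minus strand): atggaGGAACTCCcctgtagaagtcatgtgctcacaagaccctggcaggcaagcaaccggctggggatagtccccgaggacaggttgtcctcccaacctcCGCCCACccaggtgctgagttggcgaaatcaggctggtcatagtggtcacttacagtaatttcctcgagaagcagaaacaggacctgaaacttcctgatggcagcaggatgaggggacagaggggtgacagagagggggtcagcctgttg
Cirbp (chr7:10189476-10189725, minus strand): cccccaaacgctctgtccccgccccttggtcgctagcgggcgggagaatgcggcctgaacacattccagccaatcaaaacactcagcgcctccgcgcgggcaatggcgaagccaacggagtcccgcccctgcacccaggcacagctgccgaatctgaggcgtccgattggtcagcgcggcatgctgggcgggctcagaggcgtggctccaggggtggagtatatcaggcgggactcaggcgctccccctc
Rbm3 (chrX:17020655-17020904, plus strand): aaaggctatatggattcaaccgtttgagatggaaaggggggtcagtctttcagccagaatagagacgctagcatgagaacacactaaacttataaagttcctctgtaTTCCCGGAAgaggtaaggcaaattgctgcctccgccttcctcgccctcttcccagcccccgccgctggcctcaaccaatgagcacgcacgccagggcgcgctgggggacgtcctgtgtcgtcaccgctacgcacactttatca
The Gfap window held 3 matches to the NF-kB letters GGNNTTCC, which 15.2% of 33469 rat promoters hold. C1qb held 1 NF-kB match and 1 match to the Egr letters GTGGGCG (6.27% of promoters), Rbm3 held 1 match to the STAT letters TTCNNNGAA (7.67%), and Cirbp held none of the 6 motifs searched on both strands. The other motifs were AP-1 (TGANTCA, 6.34%), the E-box CACGTG (5.59%) and the CRE letters TGACGT (6.95%), and no 2 matches overlapped in these 4 windows. Of the 12 higher genes 10 had a promoter in the table, and 3 of them held the NF-kB letters (C1qb, FAM187A and Gfap), 1 the Egr letters (C1qb) and 1 the E-box (Fgfrl1). Of the 12 lower genes 11 had one, and 3 held the CRE letters (Clk1, Srsf5 and Tnnc2), 3 the Egr letters (Phf24, Slc37a1 and Slk) and 2 the NF-kB letters (Enpp5 and Srsf5). A match is a string of letters and not a bound site, and a missing match says only that these letters are not in this window.

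The 10 genes called without DG replicates 1 and 2 were chosen by that fit, after the header numbers had been seen. Such a fit favours genes in which the libraries left out ran against the difference, so the calls are not a separate check. Bmf, the cystathionine beta-synthase gene Cbs, the granulocyte colony-stimulating factor receptor gene Csf3r, Lgi4, C1qb and Rbm14, an RNA-binding coactivator, rose by log2 fold changes of 0.51, 0.38, 0.49, 0.39, 0.30 and 0.22. Btrc, Cirbp, Rbm3 and Srsf5 fell by 0.25, 0.38, 0.59 and 0.27. Their FDR in edgeR ran from 0.0208 to 0.0441, and 6 of the 10 were among the 24 named genes. Cbs read 91.3, 87.1, 61.8 and 45.3 CPM in DG Sal and 55.3, 53.6, 60.0 and 72.6 CPM in DG METH libraries. In the CA it stood at 51.2, 51.3, 55.1 and 52.5 CPM in Sal and 73.5, 86.5, 81.6 and 92.6 CPM in METH libraries.

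Csf3r and Rbm14 were the 2 genes (0.0124%) whose METH libraries exceeded all Sal libraries in 3 regions. Csf3r stood at 3.39, 5.01, 4.01 and 3.96 CPM in NAc Sal and 6.68, 5.42, 7.03 and 5.08 CPM in NAc METH libraries, and its log2 fold change was 0.56, -0.02, 0.51 and 0.53 in NAc, DG, CA and SVZ. No gene (0.0%) was lower without overlap in 3 regions. When NAc METH 3 and DG Sal 3 were left out as well, 17 genes were called and 9 of the 10 were among them. The DG Sal group then held a single library, assumed to vary like the others, and 8 of the 17 had not been tested before and had their highest count in that library, DG Sal 4.

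Most astrocyte genes lay above 0. Of 25 reactive astrocyte genes tested, 24 had a log2 fold change above 0 (52.4% of all genes did), 7 were higher at an unadjusted p under 0.05 (background 4.1%) and none was lower, and the median was 0.25 against 0.01 over all genes. The median was 0.30, 0.22, 0.24 and 0.32 in NAc, DG, CA and SVZ. Beside Gfap, Aspg, an asparaginase induced in reactive astrocytes, had medians of 0.487 CPM in Sal and 1.46 CPM in METH libraries (log2 fold change 1.08, FDR = 0.491 in edgeR). Lcn2, the secreted siderophore-binding lipocalin, had medians of 0.355 and 0.691 CPM (1.15), and Timp1, a metalloproteinase inhibitor, 2.06 and 3.06 CPM (0.60). The summed level of the list was 442 to 551 CPM in NAc Sal, 555 to 1454 CPM in NAc METH, 615 to 1020 CPM in SVZ Sal and 1007 to 1845 CPM in SVZ METH libraries. In the DG it was 491 to 944 and 885 to 1297 CPM, and in the CA 607 to 1020 and 849 to 951 CPM. Much of each sum was Gfap, so the sums largely repeat that gene. In the NAc Gfap had group means of 254 CPM in Sal and 754 CPM in METH libraries, and the list 487 and 1046 CPM. In the SVZ Gfap had 446 and 833 CPM, and the list 809 and 1250 CPM. With NAc METH 3, DG Sal 3 and DG replicates 1 and 2 left out the list's median log2 fold change was 0.13. Homeostatic astrocyte genes had a median of 0.11, with 13 of 15 above 0. Their median was 0.26, 0.02, 0.16 and 0.0009 in NAc, DG, CA and SVZ, with 8 of 15 above 0 in the DG and 8 in the SVZ. At an unadjusted p under 0.05 were 4, the water channel gene Aqp4 (0.26), the glutamate transporter gene Slc1a3 (0.21), Aldh1l1 (0.25) and the potassium channel gene Kcnj10 (0.22). With 1 unit per library number, or with sequencing run as a covariate, 0 members were at that level.

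The median of microglial genes was above 0 in every region. Of 17 tested, 13 were above 0 (52.4% of all genes) and 7 of them had an unadjusted p under 0.05 (background 4.1%), with a median of 0.13 that was 0.14, 0.14, 0.13 and 0.13 in NAc, DG, CA and SVZ. The 7 were C1qb, Tyrobp, the complement receptor subunit Itgam (0.32), C1qa (0.20), C1qc (0.18), the protease Ctss (0.18) and the growth factor receptor Csf1r (0.14). The summed level of the list was 434 to 527 CPM in NAc Sal and 452 to 565 CPM in NAc METH libraries, and the ranges overlapped in the other regions too. With 1 unit per library number 3 members were at an unadjusted p under 0.05, and with sequencing run as a covariate 4.

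The antigen presentation list had the highest median among the immune lists, 0.32, with all 14 genes tested above 0 and 7 at an unadjusted p under 0.05. Ciita, the master activator of MHC class II genes, had medians of 0.308 CPM in Sal and 0.558 CPM in METH libraries (log2 fold change 0.78, FDR = 0.563 in edgeR). The class II chain genes RT1-Ba, RT1-Bb, RT1-Da and RT1-Db1 had 1.17, 1.42, 0.90 and 0.78, and the invariant chain Cd74 had 0.74 with medians of 5.86 and 11.8 CPM. MHC genes are polymorphic in an outbred stock and close in sequence to each other, and when each library number was made 1 unit, 3 members had an unadjusted p under 0.05. Without NAc METH 3 and DG Sal 3 the median was 0.26 with 3 members at that level. In the interferon list 2 of 23 members were higher at that level (background 4.1%), Mx1 (1.22) and the immunoproteasome subunit gene Psmb8 (0.37), with a median of 0.18. That median was 0.09 without NAc METH 3 and DG Sal 3 and 0.0070 when DG replicates 1 and 2 were left out as well. With 1 unit per library number 0 members of the interferon list were at an unadjusted p under 0.05. RT1-A2 of the antigen list and Mx2 of the interferon list were among the 8 genes picked above for variation between library numbers in NAc and CA.

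The medians of stress pathways lay near 0. The unfolded protein response list had 19 of 20 genes above 0 (52.4% of all genes) at a median of 0.09. Its median was 0.06, 0.01, 0.04 and 0.23 in NAc, DG, CA and SVZ. Manf (0.17), Sdf2l1 (0.35), Calr (0.13) and Sel1l (0.12) were higher at an unadjusted p under 0.05, which 4.1% of all genes reached. Among heat shock chaperones 2 of 20 reached it, the collagen chaperone Serpinh1 (0.39, FDR = 0.489 in edgeR) and Hspb8 (0.34). Among antioxidant genes 3 of 20 did, the transcription factor Nfe2l2 (0.21) and its targets Nqo1 (0.26) and Prdx6 (0.17). Cholesterol synthesis genes were above 0 in 21 of 22 cases (52.4% of all genes) at a median of 0.07, and 1 reached an unadjusted p under 0.05. Their median was -0.04, 0.15, -0.07 and 0.32 in NAc, DG, CA and SVZ, and 0 of them were higher in all 4 regions.

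**Figure D4:**
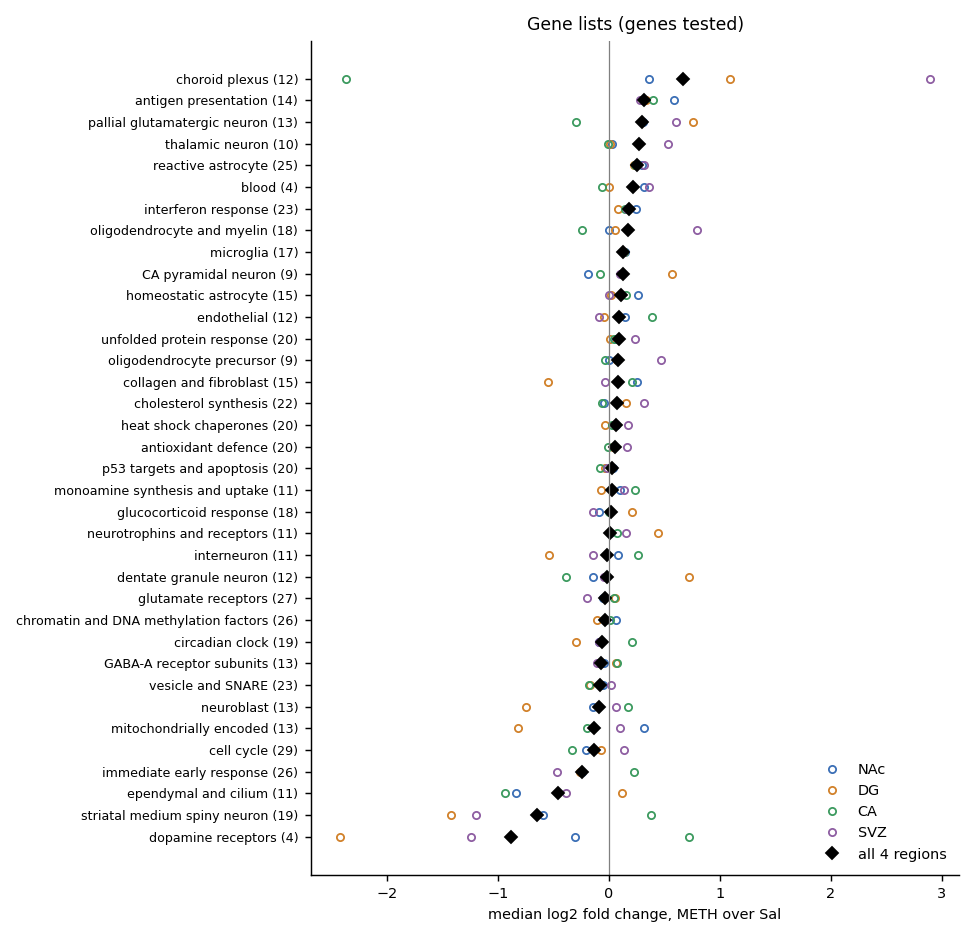
Median log2 fold change of METH over Sal (x axis) of each gene list (y axis), in each region and in the common fit. Reactive astrocyte genes lay at 0.25 in the common fit, and medium spiny neuron genes at -0.65 with a CA value of 0.38.

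Markers of medium spiny neurons had negative medians in 3 regions and a positive one in the CA. All 19 medium spiny neuron genes were below 0 in the common fit at a median of -0.65, and 4 were lower at an unadjusted p under 0.05 (background 3.35%), namely Rasd2 (-0.78), Gpr6 (-1.23), Foxp1 (-0.58) and Rgs9 (-1.10). The list's median was -0.59 in the NAc, -1.42 in the DG, 0.38 in the CA and -1.20 in the SVZ. Summed levels ran from 3737 to 16114 CPM in NAc Sal and 803 to 7712 CPM in NAc METH libraries, and from 958 to 11388 CPM in SVZ Sal and 770 to 5653 CPM in SVZ METH libraries. These sums move with the regional markers of the libraries that stood apart, and the median was -0.25 with 0 members at an unadjusted p under 0.05 once NAc METH 3 and DG Sal 3 were left out. Dopamine receptor genes had a median of -0.88, and Drd3 (-1.22) reached an unadjusted p under 0.05. Their median was 0.72 in the CA, -0.35 without DG Sal 3, and -0.24 with 0 members at that level without NAc METH 3 and DG Sal 3. Choroid plexus genes had a median of 0.67 and myelin genes of 0.17, each with 0 members at that level, and the choroid plexus median was -2.38 in the CA and 2.89 in the SVZ. The myelin median was -0.0005, 0.05, -0.24 and 0.79 in NAc, DG, CA and SVZ. Of its 18 genes, 18 were above 0 in the SVZ and 3 in the CA. Without DG METH 3 the choroid plexus median was -0.70, without CA Sal 2 it was 1.59, and without NAc METH 3 and DG Sal 3 it was 0.32.

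Activity-regulated and clock genes had negative medians in the common fit and positive ones in the CA. The immediate early list had a median of -0.24 with 8 of 26 genes above 0 (52.4% of all genes). The regional medians were -0.24, -0.26, 0.23 and -0.46 in NAc, DG, CA and SVZ. Npas4, an activity-dependent transcription factor of neurons, had medians of 6.21 CPM in Sal and 3.43 CPM in METH libraries, with the Sal range reaching 51.5 CPM and the METH range 8.59 CPM (log2 fold change -1.45, FDR = 0.567 in edgeR). It was below the regional Sal mean in 15 of 16 METH libraries. Per1 (-0.25), shared with the clock list, and the clock genes Tef (-0.24) and Arntl (-0.19) had an unadjusted p under 0.05.

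The 26 chromatin and DNA methylation factors tested had a median of -0.04, with 11 above 0. Smarca2, an ATPase of SWI/SNF remodellers, and the transcription factor Mef2d had log2 fold changes of -0.29 and -0.25, and the histone deacetylase Hdac9 had 0.35, each at an unadjusted p under 0.05. Of the cell cycle genes, Ccnd1 (cyclin D1, 0.38) and Mcm2 (0.29) were higher at an unadjusted p under 0.05 while the list's median was -0.14. The list's median was -0.39 without SVZ METH 1 and -0.08 without SVZ METH 4. Without DG replicates 1 and 2 and SVZ it was -0.30. In that fit 9 members were lower and 2 higher at that level, and 2 members passed an FDR of 0.05. Of all 16193 genes in that fit, 486 were lower and 724 higher at that level.

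The 15 genes that the study named for more than 1 region were chosen on these samples, so their values are not independent evidence. Apart from Gfap, their FDR in the common fit lay between 0.688 and 0.997 in edgeR. The dopamine receptor Drd1 had -0.80, the transcription factors Dach1 -0.84, Egr2 -0.59, Egr4 -0.42, Rarb -0.65, Meis2 -0.50, Fosb -0.33, Tshz2 -0.04 and Bhlhe23 -0.01. Among the rest were neuritin, Nrn1 (0.56), the methyltransferase family gene Prdm8 (0.69), the chromatin genes Dpf3 (0.13) and Hdac5 (0.14), and the topoisomerase Top2a (-0.67). Several of these values rested on 1 library. Without DG Sal 3, whose Drd1 level was 122 CPM, Drd1 stood at -0.32, Dach1 at -0.44, Rarb at -0.35 and Meis2 at -0.28. Without NAc Sal 1 Egr2 stood at -0.33, without SVZ Sal 1 Nrn1 stood at 0.95, and without SVZ METH 1 Prdm8 stood at 0.26 and Top2a at -1.30. Group means of Top2a in Sal and METH libraries were 3.35 and 1.03 CPM in the NAc and 3.53 and 1.10 CPM in the CA. They were 2.35 and 2.32 CPM in the DG, and 12.1 and 15.8 CPM in the SVZ. Dpf3 stood at 0.04 without DG METH 4. In NAc METH 3 Drd1 read 7.30 CPM, against 191, 227 and 224 CPM in the other NAc METH libraries. Regional medians over the list were -0.31, -0.52, 0.54 and -0.78 in NAc, DG, CA and SVZ.

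A test of whether the METH effect differed between regions called 1 of 16122 genes (0.0062%), and 1248 (7.74%) had an unadjusted p under 0.05. Arhgef25, a guanine nucleotide exchange factor (7:70469312-70476340), read 61.9, 60.7, 61.3 and 50.9 CPM in DG Sal and 129, 142, 108 and 163 CPM in DG METH libraries, without overlap. In the CA it read 177, 75.4, 111 and 90.3 CPM in Sal and 55.5, 52.3, 85.4 and 75.0 CPM in METH libraries. The log2 fold change was -0.03, 1.20, -0.76 and -0.63 in NAc, DG, CA and SVZ, with an interaction FDR of 0.0490 in edgeR. The call was lost without DG replicates 1 and 2 (0 genes) and with no filter on low counts (0), and DESeq2's likelihood ratio test called 91 genes. Region by region, the 8-group fit called 0 genes in NAc, 208 in DG (1.29%), 0 in CA and 0 in SVZ, with 435 (2.7%), 2351 (14.6%), 588 (3.65%) and 832 (5.16%) at an unadjusted p under 0.05. A fit of the 8 DG libraries alone called 1.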

How the data were processed

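RNA-seq libraries of 4 brain regions were counted per gene by the authors. Reads were trimmed with cutadapt 2.7, checked with FastQC 0.11.4 and aligned with STAR 2.5.2b to rn6, per the submitters' processing notes. The deposited counts are whole numbers of fragments from featureCounts 1.6.3 without strand, per the file headers, which name Ensembl release 95, and are not normalized. Replicates were not pooled. Counts were tested in edgeR 4.0.16 (upper-quartile scaling, filterByExpr by the 8 groups, region + METH, quasi-likelihood F test, Benjamini-Hochberg adjustment over all genes), with limma 3.58.1 and DESeq2 1.42.0 as alternatives in R 4.3.3. The interaction test had 3 terms, and region values came from a fit of the 8 group means. Counting error was small beside the spread between libraries for genes of at least 20 counts, whereas genes under about 1 CPM, such as Mir760, Ciita and Lcn2, rest on few reads. Scripts were tested on simulated data. In each direction the 12 genes with the lowest p and the same sign in all 4 regions were named, and with them list members of low p and the study's list. The members and lists were chosen with earlier results of these data known. Library numbers and runs came from the file headers, and RNA integrity numbers, a covariate in 1 alternative, from the study's supplement. Promoters came from RefSeq (GRCr8). A list member is not reported here.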

Additional observations from a re-analysis of the deposited data

Results flagged for a closer look

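Among the 24 named genes, 12 of 192 groups of 4 libraries held a library far from the other 3, where chance flags about 1 in 20 groups (9.6 of 192). NAc METH 3, which also had the lowest Ppp1r1b of the NAc, was such a library for Gpr37l1 (334 CPM against 237 to 244), Oga (154 against 198 to 201 CPM) and Phf24 (57.7 against 113 to 120 CPM). CA Sal 3 was the highest for Tspan12 (37.8 against 28.1 to 29.6 CPM) and Cirbp (54.5 against 44.8 to 45.4 CPM). DG METH 2, one of the libraries with a crossed number, was the lowest for C1qb (16.8 against 21.4 to 22.3 CPM) and the highest for Clk1 (90.3 against 73.6 to 75.4 CPM), and DG METH 1 was the lowest for Tnnc2 (0.861 CPM, with the other 3 reaching 1.59 CPM). Lpar4 was high in SVZ Sal 4 (4.44 CPM, with the other 3 at 2.88 CPM or less) and in SVZ METH 1 (5.64 against 3.10 to 3.52 CPM). Rplp0 was low in CA METH 1 (186 against 206 to 208 CPM) and Slk in SVZ Sal 1 (76.0 against 120 to 129 CPM). Arhgef25 differed between regions in its METH effect (interaction FDR = 0.0490 in edgeR), with the DG opposite to the CA and SVZ. The causes of these values were not tested.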

How the results depend on the processing

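With 4 libraries a group and libraries that stood apart, the common fit had 27 residual degrees of freedom, and effects well under the spread between libraries could not be called. The count of common genes stayed at 0 under TMM or DESeq2 size factors, robust or limma-voom fits, both other filters, 8 group means, RNA integrity, sequencing run, the series' own count matrix, summed SVZ libraries, and with NAc, CA or SVZ left out. It was 11 with DESeq2's Wald test (7 higher, 4 lower), 1 with the likelihood ratio test (1 higher), 2 with 1 RUVr factor (2 higher), 45 with 2 (33 higher, 12 lower) and 314 with 4 (183 higher, 131 lower). It was 7 without DG (6 higher, 1 lower) and 10 without DG replicates 1 and 2 (6 higher, 4 lower). In alternatives added after seeing the data, it was 17 without these, NAc METH 3 and DG Sal 3 (6 higher, 11 lower), 15 without DG replicates 1 and 2 and SVZ (9 higher, 6 lower), 9 with NAc and CA only (6 higher, 3 lower), and 0 with 1 unit per library number without DG, where 771 genes had an unadjusted p under 0.05 and the lowest FDR was 0.915. Leaving out each library gave 0 to 1 (1 without DG METH 1), all higher, and 985 (without NAc METH 3) to 1899 (without SVZ Sal 1) genes at an unadjusted p under 0.05.

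Same-numbered Sal and METH replicates did not deviate together (r from -0.763 to 0.393, 7 of 16 pairs over 0.1), and with the replicate block 0 genes were called for the common effect, 882 had an unadjusted p under 0.05 and the interaction called 0. The region-by-METH interaction called 0 with no filter, 91 with DESeq2, 45, 410 and 1541 with 1, 2 and 4 RUVr factors, 0 without NAc, DG, SVZ or DG replicates 1 and 2, 2 without CA, 0 at an FDR under 0.01 and 2 under 0.1, and 0 to 20 with each library left out (20 without CA Sal 4). Within the DG, 208 genes became 1 in a fit of its own 8 libraries. Of 1461 values of the 24 named genes under the alternatives, 69 passed an FDR of 0.05; their shared direction was fixed by the choice of the genes.

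Signs turned in genes of the study's list and in list medians. With NAc and CA only, Drd1 stood at 0.13, Egr2 at 0.10, Egr4 at 0.0901, Meis2 at 0.11, Fosb at 0.14, Tshz2 at 0.79 and Dpf3 at -0.40, and the immediate early and clock medians at 0.0269 and 0.0045. Without DG replicates 1 and 2 and SVZ, Egr2 stood at 0.0132, Egr4 at 0.0888, Fosb at 0.11, Bhlhe23 at 0.0029, Tshz2 at 0.15, Dpf3 at -0.0740 and the immediate early median at 0.0725. Bhlhe23 stood at 0.0163 with 8 group means, 0.0650 with the replicate block, 0.0607 with 4 RUVr factors, 0.39 without CA, 0.41 without SVZ, 0.10 with summed SVZ libraries, 0.0468 in the series' count matrix, 0.10 without NAc METH 3 and DG Sal 3, 0.18 without these, SVZ Sal 1 and SVZ METH 2, and -0.18 to 0.22 with each library left out. Tshz2 stood at 0.0924 with the replicate block, 0.29 with run, 0.0562 with 4 RUVr factors, 0.61 without DG, 0.18 without DG replicates 1 and 2, 0.11 without these, NAc METH 3 and DG Sal 3, 0.56 by library number, and -0.15 to 0.12 with each library left out. Dpf3 stood at -0.19 without DG, -2.28e-05 without DG replicates 1 and 2, -0.13 without these, NAc METH 3 and DG Sal 3, -0.0044 without NAc METH 3, DG Sal 3, SVZ Sal 1 and SVZ METH 2, and -0.28 by library number. Hdac5 stood at -0.0127 without CA. The clock median stood at 0.0046 with run, 0.0237 without DG, 0.0094 without DG replicates 1 and 2, NAc METH 3 and DG Sal 3, and 0.0020 by library number. Without DG replicates 1 and 2 and SVZ the choroid plexus median stood at -0.69 and the myelin median at -0.12, and with run the chromatin median stood at 0.0034. The causes were not tested.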
